A study of Mus musculus with 10 samples.

Results

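Fibrinogen-expressing proximal cells were defined as single kidney cells in which transcripts of at least 2 of the 3 fibrinogen chain genes (Fga, Fgb and Fgg) were detected together with at least 1 transcript of a proximal tubule gene (Slc5a12, Slc13a1 or Hao2) and none of Vcam1, Ptprc or Pecam1. They numbered 537 of 52797 cells that had at least 500 detected genes and at most 50% of their transcripts from mitochondrial genes. Cells came from dissociated kidney cortex, normal (control) or injured, of 4-week-old mice, and were profiled by Drop-seq, a method that captures the RNA of each cell on a barcoded bead. Days 7, 11 and 14 after injury had 2 libraries each, whereas the control, day 1, day 2 and day 4 had 1 each. The labels give no kind of injury, strain, sex, number of animals or date, so the spread between libraries of a day may be technical. The deposited tables summed to between 7091848 and 31632205 transcripts each. The libraries held 3568 to 6941 filtered cells, with medians of 1244 to 2661.5 unique molecular identifiers (UMIs, here read as 1 per captured transcript) per cell. Among the 52735 distinct barcode sequences, 62 occurred in more than 1 library, and 4 of the members carried such a barcode.

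Fibrinogen is a secreted plasma protein made of paired Aα, Bβ and γ chains, encoded by Fga, Fgb and Fgg, and thrombin converts it to fibrin in the last step of clotting. The liver makes nearly all of it, and its genes are textbook acute phase genes: interleukin-6, acting through STAT3 and with hepatocyte nuclear factors, raises their transcription in hepatocytes. The proximal tubule reabsorbs most filtered glucose, phosphate, amino acids and protein, and is the segment of the nephron most exposed to ischemic and toxic damage. Slc5a12 encodes a lactate transporter of its early part, Slc13a1 a sulfate transporter and Hao2 a peroxisomal oxidase. Havcr1 (KIM-1) is the standard transcript marker of an injured proximal tubule cell, and Vcam1 marks an inflammatory state of such cells, which the membership rule left out.

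The 3 chain genes lie side by side on mouse chromosome 3 (GRCm38, GENCODE M21): Fgg at chr3:83007724-83015049 on the plus strand, Fga at chr3:83026076-83033627 on the plus strand and Fgb at chr3:83040141-83049863 on the minus strand. Fgg overlaps a gene model on the opposite strand, Gm30097. The 250 bases before each RefSeq transcription start (GRCm38.p6) are shown because the members are defined by joint detection of these genes; they lie at chr3:83025903-83026152 (Fga, plus strand), chr3:83049864-83050113 (Fgb, minus strand) and chr3:83007474-83007723 (Fgg, plus strand). Capitals mark the core of the interleukin-6 response element, CTGGGA, searched on both strands (reverse form TCCCAG).
Fga: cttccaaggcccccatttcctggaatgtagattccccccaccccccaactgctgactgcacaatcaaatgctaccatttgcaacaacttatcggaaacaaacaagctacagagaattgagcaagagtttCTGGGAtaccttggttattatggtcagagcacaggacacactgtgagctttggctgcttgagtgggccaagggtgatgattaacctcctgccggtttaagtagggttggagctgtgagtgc
Fgb: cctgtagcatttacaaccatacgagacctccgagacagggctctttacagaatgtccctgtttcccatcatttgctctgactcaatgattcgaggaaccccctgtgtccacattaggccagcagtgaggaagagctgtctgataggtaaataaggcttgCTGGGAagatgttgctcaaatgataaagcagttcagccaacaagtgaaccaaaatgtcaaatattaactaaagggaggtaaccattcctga
Fgg: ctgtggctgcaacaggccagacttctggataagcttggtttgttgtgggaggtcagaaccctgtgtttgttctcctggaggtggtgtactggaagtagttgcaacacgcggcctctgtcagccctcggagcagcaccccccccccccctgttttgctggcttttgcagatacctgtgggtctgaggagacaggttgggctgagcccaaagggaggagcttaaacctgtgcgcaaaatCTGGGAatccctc
CTGGGA was present once in each of the 3, with its first base 121 (Fga), 91 (Fgb) and 13 (Fgg) bases before the RefSeq start. The RefSeq start of Fga lies inside the GENCODE gene given above, so its window reaches into that gene and the distance holds for the RefSeq start only. It was also present in 27.0% of the 32851 mouse promoter windows of the same length. These are matches of letters, not measured binding sites.

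The members came almost entirely from the first week after injury. There was 1 in the control, 222 at day 1, 38 at day 2, 223 at day 4, 26 and 13 in the replicates of day 7, 0 in both libraries of day 11, and 2 and 12 in the replicates of day 14. Because detection of fibrinogen defines the members, these counts and the shares below describe the rule and carry no test. Shares were taken of all cells that met the proximal and exclusion conditions (20549 cells, called proximal-marker cells here), with exact 95% Clopper-Pearson intervals that cover counting error only. The share was 0.0423% in the control (0.00107 to 0.236), 20.3% at day 1 (18.0 to 22.8), 2.07% at day 2 (1.47 to 2.83) and 10.3% at day 4 (9.03 to 11.6). At day 7 it was 7.01% (4.63 to 10.1) and 3.04% (1.63 to 5.14), which gives 5.02% ± 2.81 (SD, n = 2). At day 11 it was 0 of 1767 and 0 of 1893 cells, which allows shares of up to 0.170% and 0.158% by a limit of 3 counts (0.209% and 0.195% by the exact interval). At day 14 it was 0.0459% (0.00556 to 0.166) and 0.281% (0.145 to 0.490). Day 1 stood above every other library, day 2 lay below its neighbours in time, and the intervals of day 4 and of the first day 7 replicate overlapped, as did those of both day 7 replicates. Over all filtered cells the shares were 0.0163% in the control, 6.22%, 0.930% and 3.48% at days 1, 2 and 4, 0.718% and 0.252% at day 7, and 0.0288% and 0.194% at day 14.

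**Figure D1:**
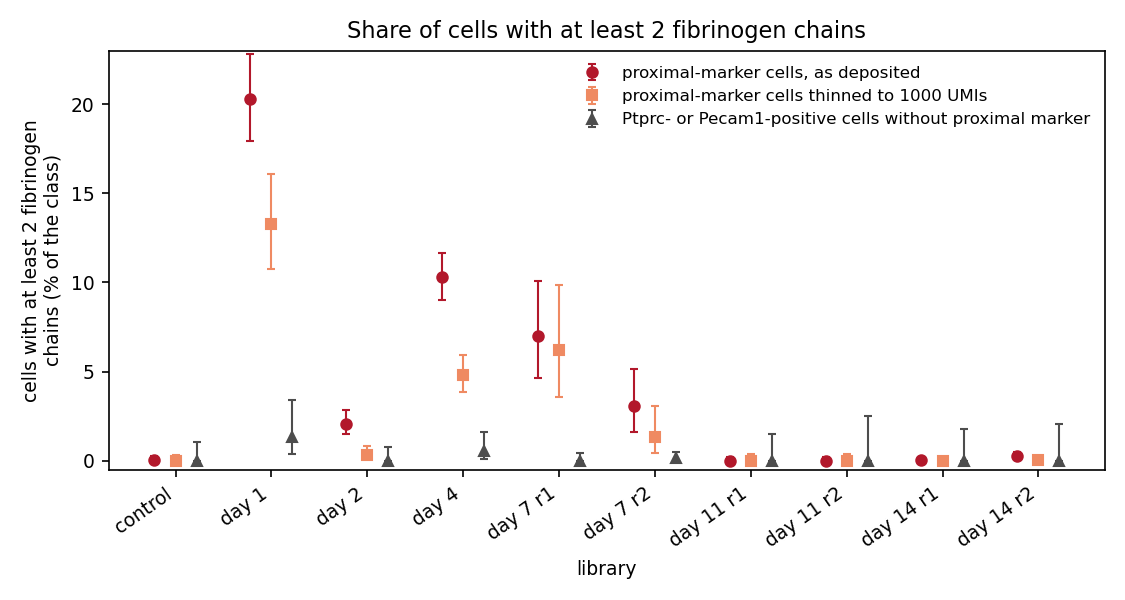
Percentage of cells with at least 2 fibrinogen chains in each library (r1 and r2 are replicates), for proximal-marker cells as deposited, cells that met the same conditions after thinning to 1000 UMIs, and immune or endothelial cells. Bars are exact 95% intervals. Proximal-marker cells of day 1 reach 20.3% as deposited and 13.3% after thinning, and immune or endothelial cells stay at or below 1.34% in every library.

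Deep cells have more chance of yielding 2 chains, and the members were deeper than the rest. Their median was 2487 UMIs at day 1, 13923 at day 2 and 3187 at day 4, against 1479, 1935 and 1579.5 in the proximal-marker cells without fibrinogen of the same libraries. The single control member held 80218 UMIs. With every cell thinned to 1000 UMIs and shallower cells left out, the shares were 0 of 1110 cells in the control (which allows up to 0.270%), 13.3% of 664 cells at day 1, 0.316% of 1266 at day 2, 4.83% of 1720 at day 4, 6.20% of 258 and 1.33% of 377 at day 7, 0 of 1068 and 0 of 1053 at day 11, and 0 of 2844 and 0.0317% of 3159 at day 14. All conditions of the rule, the excluded genes among them, were applied to the thinned counts. Cells that lost their only excluded UMI could thus enter, and how many did was not counted. Day 1 again had the highest share and day 2 again lay below days 1 and 4. The day 2 members were mostly deep cells: 22 of its 38 members held over 10000 UMIs, and without such cells it was 0.950%.

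Free RNA in the droplets can give fibrinogen UMIs to cells that do not make them, so the same count was taken in cells without a proximal marker. Among cells with Ptprc (CD45, on leukocytes) or Pecam1 (CD31, on endothelium), at least 2 chains were found in 1.34% at day 1 (4 of 299 cells), 0.552% at day 4 (3 of 543), 0.132% in the second replicate of day 7 and 0 in the other libraries, where a count of 0 allows 0.358% to 2.07%. Their median depth was 1589 UMIs at day 1 and 1619 at day 4. Among cells with Umod, Slc12a3 or Aqp2, transcripts of the distal nephron, the share was 1.32% at day 1, 0.322% at day 2, 0.725% at day 4, and 0.545% and 0.456% at day 7. At day 2 the interval of this distal class (0.0664 to 0.938), which was not thinned, lay below that of the proximal-marker cells as deposited (1.47 to 2.83). It overlapped that of the thinned ones (0.0862 to 0.807). The background classes were not counted at 1000 UMIs, so whether the thinned day 2 share exceeds background at that depth was not measured. At days 1 and 4 and in the first replicate of day 7 the interval of the thinned proximal-marker cells (10.8 to 16.1, 3.86 to 5.95 and 3.59 to 9.88) lay wholly above those of both background classes. In the second replicate of day 7 it (0.432 to 3.07) overlapped that of the distal class (0.183 to 0.937). There too the thinned share was not compared with a background of the same depth. The as-deposited interval (1.63 to 5.14) lay above that of the distal class, which was not thinned. Single chains were far less specific: at least 1 chain was found in 12.4% of the immune or endothelial cells of day 1, against 44.0% of its proximal-marker cells.

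The membership threshold fell inside a broad range of fibrinogen levels. The median member held 7 fibrinogen UMIs at day 1 and 4 at days 2 and 4, up to a maximum of 97 in 1 cell of day 1. Per 10000 UMIs the medians were 27.8 at day 1, 2.75 at day 2, 16.0 at day 4, and 19.1 and 13.9 at day 7. Just inside the threshold lay 111 members with exactly 2 fibrinogen UMIs. Just outside lay 1355 proximal-marker cells with a single chain, 259 of which held at least 2 UMIs of it. Another 99 cells had at least 2 chains and no proximal marker, and 213 had both but were left out for an excluded gene. Of those 213 cells, 196 held Vcam1, and 133 of these came from day 4.

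Fgg was the chain found most often, in 514 of the 537 members, followed by Fga in 430 and Fgb in 289. All 3 chains were found in 159 members, Fga with Fgg only in 248, Fgb with Fgg only in 107 and Fga with Fgb only in 23. These detections are part of the membership rule and are given as a description, with 1 library each for days 1, 2 and 4. Fgb was detected in 83.3% of the day 1 members (77.8 to 88.0), but in 26.3% at day 2 (13.4 to 43.1), 33.6% at day 4 (27.5 to 40.2), 30.8% in each day 7 replicate and 50% in the second day 14 replicate (21.1 to 78.9). Fga was detected in 68.0% of the day 1 members (61.5 to 74.1) and in 91.0% at day 4 (86.5 to 94.4). The intervals cover counting error within a library and not the spread between libraries of a day. The day 4 members were the deeper. In all, 71 members of day 1 held Fgb and Fgg without Fga, while 148 of day 4 held Fga and Fgg without Fgb.

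**Figure D2:**
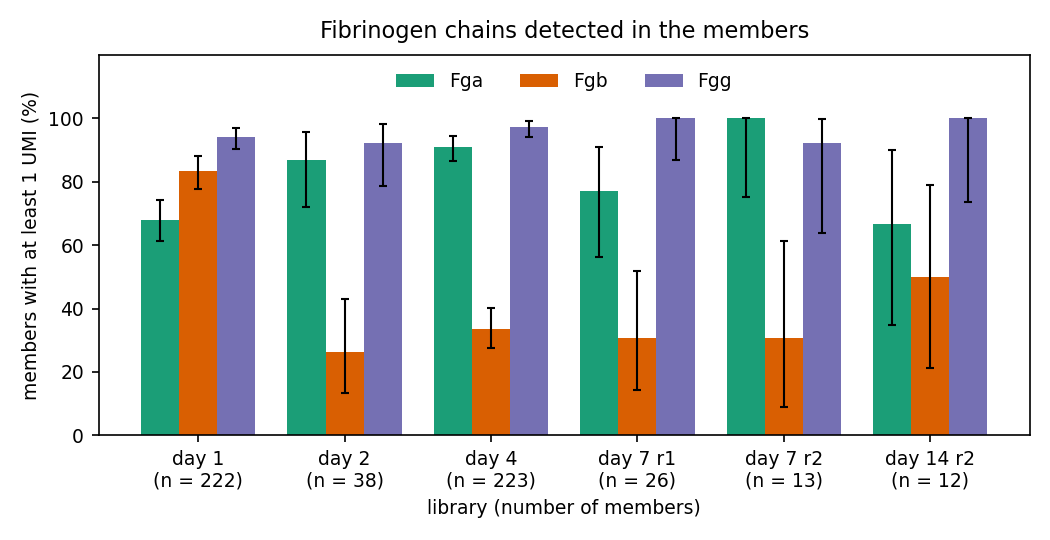
Percentage of members with at least 1 UMI of Fga, Fgb or Fgg in the 6 libraries with at least 10 members; bars show the percentage with its exact 95% interval. Fgb was found in 83.3% of the day 1 members and in 26.3% to 33.6% of those of days 2, 4 and 7, with day 14 between them at 50% of 12 members.

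The chain levels were also taken without the threshold. Summed over all proximal-marker cells of a library, Fgb stood at 208 CPM (UMIs of a gene scaled to a fixed total, the same for every library) at day 1 and Fga at 119, whereas at day 4 Fgb stood at 21.2 and Fga at 82.2. In the control the levels were 1.42 (Fga), 0.0708 (Fgb) and 0.354 (Fgg) CPM. Fgg stood at 618 CPM at day 1, at 30.7 at day 2 and 193 at day 4, at 218 and 77.1 at day 7, at 0.727 and 1.53 at day 11, and at 6.79 and 11.9 at day 14. Both day 14 libraries were thus above both day 11 libraries and above the control for Fgg, whereas for Fga the replicates of day 14 (3.79 and 7.24 CPM) and day 11 (2.18 and 3.92) overlapped. In the distal class without a proximal marker, at least 1 chain was found in 0.791% and 1.34% of cells at day 14. The shares were 0.179% and 0.663% at day 11 and 0.431% in the control, so this background was also highest at day 14 among these libraries. Among proximal-marker cells the shares were 3.74% and 5.52% at day 14, 0.679% and 1.27% at day 11 and 0.973% in the control. At day 14 the exact intervals of the proximal-marker cells lay wholly above those of the distal class. The classes were not matched in depth, and the part of background in the day 14 levels was not tested. At least 2 chains were found in 0.0879% and 0.103% of the distal class at day 14 (1 cell each). These intervals overlapped those of the day 14 members, so that the day 14 members were not detectable above background. Fgb was at 0 in both day 11 libraries and at 0.587 and 2.48 CPM at day 14. At days 1, 2 and 4 each chain was detected in a larger share of the cells with another chain than of the cells without it. At day 1 Fgb was detected in 58.8% of the proximal-marker cells with Fga and in 13.2% of those without, and at day 4 Fgg was detected in 60.4% and 13.5%. At day 2 the shares for Fgg were 30.9% and 6.21%, whereas in the first replicate of day 14, with 1 cell holding both, they were 1.72% and 2.26%. In the second replicate of day 14 they were 8.08% and 2.99%, and in the replicates of day 7 they were 69.0% and 14.6%, and 50% and 7.18%. The cells with Fga were deeper (medians of 2189.5 against 1676 UMIs at day 1, and 3126.5 against 1686 at day 4), and the part of depth in this was not tested.

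The proximal label rested mainly on the sulfate transporter gene Slc13a1, which was detected in 493 members, against 298 for Slc5a12 and 244 for Hao2. Hao2 was found in 18.5% of the members at day 1, 84.2% at day 2 and 62.3% at day 4. Havcr1, which the rule did not use, was found in 260 members: 62.2% at day 1, 26.3% at day 2, 42.2% at day 4, 30.8% and 61.5% at day 7. Members thus included many cells in which Havcr1 was not detected, which in shallow cells need not mean that it was absent. Other injury genes were not counted per cell. By a list of 14 proximal genes, summed levels of the members were 12947 CPM at day 1, 35378 at day 2, 40325 at day 4, 12477 and 42677 at day 7, and 79605 at day 14. Of the 537 members, 36 held no more UMIs of this list than of the lists of other nephron segments and cell types, and 23 of those came from day 1. The label of proximal cells therefore held for most members.

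Hepatocytes, the usual source of fibrinogen, were checked by a list of 19 genes. Albumin (Alb) was at 0 in the summed members of days 1, 4, 7 and 14 and stood at 1.51 CPM at day 2. The summed level of the list was 18.0 CPM in the members and 15.3 in the matched cells at day 1, 68.1 and 20.3 at day 2, 94.5 and 41.5 at day 4, 43.6 and 60.7 in the first replicate of day 7, 23.01 and 29.13 in the second, and 49.72 and 25.01 at day 14. In the members of a library 9 to 18 of the 19 genes were at 0. Only 3 of the 19 genes were high enough to test in the comparison with all matched cells described below. Of these, 2 were higher in the members, against 5.68% of all genes tested there. The 2 were the apolipoprotein genes Apoh (2.74 ± 0.52 on the log2 scale, edgeR adjusted p = 7.53e-04) and Apoc3 (1.16 ± 0.38, adjusted p = 0.0462). Among mostly proximal cells 0 of 3 were called (median 0.64), against 0.391% of all genes tested there. In bulk sums of cells, a larger share of cells with a transcript and more transcript per cell cannot be told apart.

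To ask how the members differ from other proximal cells, each member was matched to its nearest neighbours in total UMIs among the fibrinogen-negative proximal-marker cells of its own library. UMI counts were summed per library and class and tested with edgeR's quasi-likelihood test, with the library as a block and Benjamini-Hochberg adjustment. The 4 libraries with at least 20 members entered (days 1, 2 and 4 and the first replicate of day 7). Their matched cells had medians of 2010, 12017.5, 3090 and 1819.5 UMIs, against 2487, 13923, 3187 and 1828 in the members. At an adjusted p under 0.05, 570 genes were higher (5.68%) and 763 lower (7.61%) in the members, of 10028 tested, or 13.3% in all. The genes with the largest rises included the complement genes Cfi (2.07 ± 0.23 on the log2 scale, SE), C3 (1.88 ± 0.19), C4b (1.75 ± 0.20) and Cfb (1.34 ± 0.21), the chemokine gene Cxcl1 (1.44 ± 0.18), the RNase genes Rnase4 (1.45 ± 0.17) and Eddm3b (1.72 ± 0.19), and proximal transporter genes: Slc34a3 for phosphate (1.51 ± 0.29), Slc7a9 for cystine (1.41 ± 0.22) and Slc7a7 for basic amino acids (1.34 ± 0.18). Gc, the vitamin D binding protein, was higher by 1.35 ± 0.25, and Npl, a sialic acid lyase, by 1.64 ± 0.20. The call on Slc34a3 was lost without the day 4 library (edgeR adjusted p = 0.0513). In the comparison of mostly proximal cells described below, none of Slc34a3, Slc7a9, Slc7a7 and Gc was called. Over the 6 libraries given there, members were higher in 3 and lower in 3 for Slc34a3, and in 3 and 2 for Gc. For Slc7a7 these counts were 4 and 2, and for Slc7a9 they were 6 and 0. C4b has a close copy, C4a, with which it can share reads.

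The largest falls included genes of other nephron segments. Umod, the uromodulin of the thick ascending limb, had a log2 change of -3.80 ± 0.33, the claudin genes Cldn16 and Cldn8 of -4.29 ± 0.36 and -3.82 ± 0.35, and the distal kallikrein Klk1 of -3.76 ± 0.34. Emb, Ppp1r1a, Klk1b3, Tspan1, Tfap2b, Pamr1, Sprr1a and Sostdc1 had log2 changes of -4.48 to -3.65. Klk1 and Klk1b3 belong to a family of near-identical genes whose reads can be shared. All 7 tested genes of the collecting duct list, 6 of 7 of the thick limb list and 3 of 3 of the distal convoluted list were lower, with medians of -2.70, -3.50 and -2.05, against -0.04 over all genes tested. Conversely 12 of 14 genes of the proximal list were higher (median 0.70), as were 21 of 29 proximal transport genes (median 0.86), with 1 lower, the glucose transporter Slc5a1. Of all genes tested, 5.68% were higher and 7.61% lower. The classes also differed in their content of other-type transcripts, and its part in these counts was not tested in this comparison. Among all fibrinogen-negative proximal-marker cells, 59.8% at day 1, 16.4% at day 2, 24.0% at day 4 and 70.9% and 41.6% at day 7 held at least as many UMIs of the other-type lists as of the proximal list. In the members this share was 10.4%, 0%, 3.14%, 15.4% and 15.4%. A single UMI of a proximal gene suffices for the proximal-marker class.

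**Figure D3:**
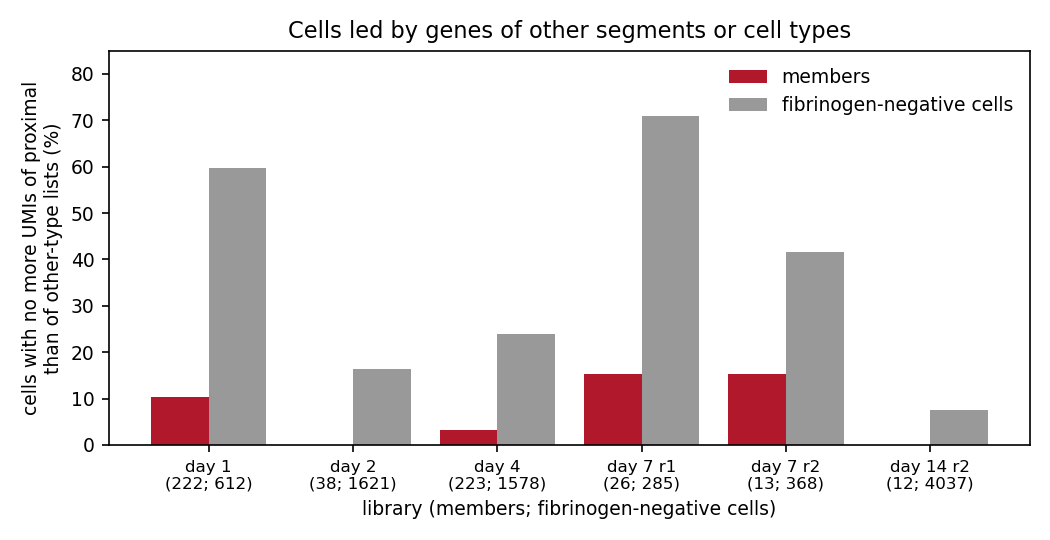
Percentage of members (red) and of fibrinogen-negative proximal-marker cells (grey) that held no more UMIs of the proximal list than of the lists of other segments and cell types together, in the 6 libraries with at least 10 members. The grey bars reach 59.8% at day 1 and 70.9% in the first replicate of day 7, and the red bars stay at or below 15.4%.

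The comparison was therefore repeated with only cells, in both classes, that held more proximal than other-type UMIs, a restriction added after the data were seen. The genes named below are those called in it, apart from 2 not reported here. It compared 199 with 199 cells at day 1, 38 with 114 at day 2, 216 with 648 at day 4 and 22 with 66 at day 7. Matched medians were 2541, 10746.5, 2545 and 1712.5 UMIs against 2633, 13923, 3172 and 1943 in the members, so the match was closer at day 1 and looser at days 2, 4 and 7 than with all matched cells. Of 8689 genes tested outside the lists used for the restriction, 34 passed (0.391%), 17 higher (0.196%) and 17 lower (0.196%), and 481 had an unadjusted p under 0.05. With DESeq2 10 were higher and 8 lower. Of the 34 genes, 28 were called in the same direction with all matched cells. The single libraries mattered: without day 4 the test called 12 genes (1 higher, 11 lower), without day 2 it called 78. Of the higher genes 1, C3, and of the lower genes 5 (S100a6, Mt2, Mt1, Anxa2 and Havcr1) passed whichever library was left out. Below, values are CPM of summed UMIs in members and in matched cells, and the second replicate of day 7 (11 members) and of day 14 (12 members) are given beside the fit, which they did not enter. Counts over 6 libraries below include these 2 and day 2. The day 14 share of members was not detectable above background. The thinned shares of day 2 and of this day 7 replicate overlapped the unthinned distal class.

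**Figure D4:**
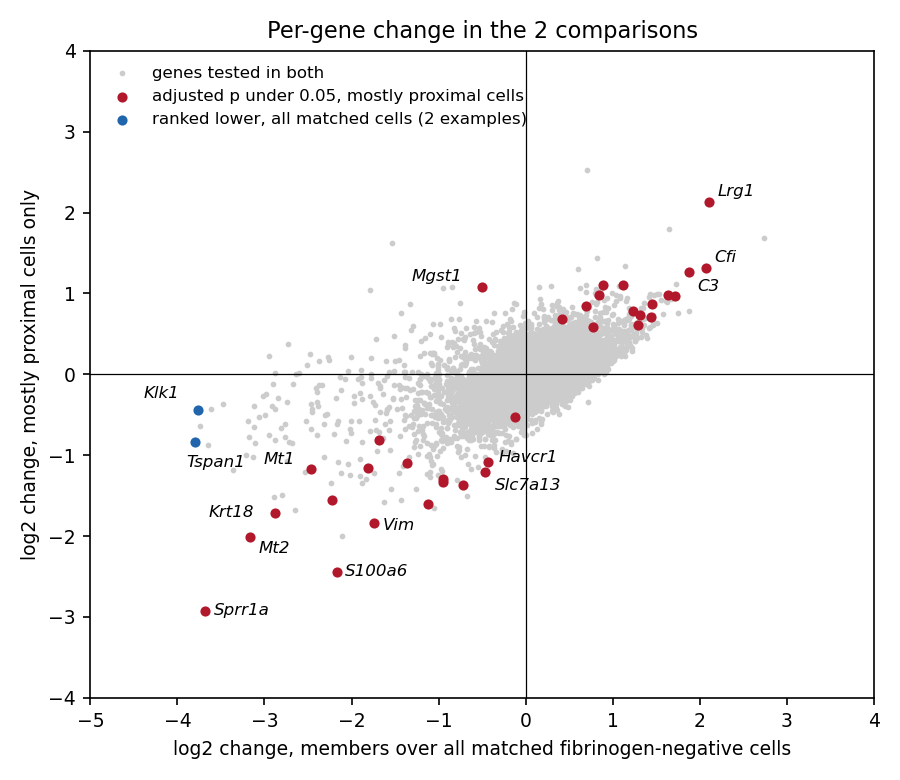
Log2 change of each gene tested in both comparisons: members over all matched fibrinogen-negative cells (horizontal) and over mostly proximal cells only (vertical); red points are the genes with an adjusted p under 0.05 in the latter. Klk1 and Tspan1 (blue) lie at -3.76 and -3.80 on the horizontal axis and at -0.44 and -0.84 on the vertical one, while C3, Cfi and Lrg1 lie between 1.27 and 2.13 on both.

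The acute phase gene Lrg1 and the complement genes C3 and Cfi were higher in the members. Lrg1, a secreted glycoprotein of the acute phase, showed the largest change among the higher genes (2.13 ± 0.35 on the log2 scale, edgeR adjusted p = 0.0015). It stood at 17.2 CPM in the members and 5.35 in the matched cells at day 1, 8.72 and 3.44 at day 2, 62.7 and 11.7 at day 4, and 31.2 and 7.04 in the first replicate of day 7. In the other replicate of day 7 and at day 14 it stood at 96.0 and 124 CPM in the members and was not found in the matched cells. The members were thus higher in 6 of 6 libraries, with the call lost without day 4. In the first replicate of day 7 the sums held 53515 UMIs in the members and 122689 in the matched cells. Its levels of Lrg1 thus stand for a few UMIs. Most matched levels lay near the floor, so the direction in those libraries rests on few UMIs.

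C3, the central complement component, stood at 241 CPM in the members and 64.2 in the matched cells at day 1, 65.4 and 32.7 at day 2, 229.6 and 104 at day 4, and 749 and 387 in the first replicate of day 7 (1.27 ± 0.17, edgeR adjusted p = 6.88e-05). The members were higher in 5 of 6 libraries: in the second replicate of day 7 they stood at 80.0 CPM, below the 285 of the matched cells. Cfi, the protease that inactivates C3b, stood at 53.0 and 17.4 CPM at day 1, 45.1 and 29.3 at day 2, 75.6 and 24.7 at day 4, and 312 and 119.7 at day 7 (1.31 ± 0.22, adjusted p = 0.0019, lost without day 4). It was higher in 6 of 6 libraries.

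With all matched cells 7 of 11 tested complement genes were higher and none lower (median 1.12), against 5.68% and 7.61% over all genes. Those 7 were C3, Cfi, C4b, Cfb, C2, C4a and C1ra. Among mostly proximal cells 2 of 8 were higher, against 0.196% of all genes tested (median 0.63 against -0.02 over all genes). The others had log2 differences of 0.26 to 0.76, among them C4b at 0.76 ± 0.20 (edgeR adjusted p = 0.123) and Cfb at 0.73 ± 0.19 (adjusted p = 0.140). Cfb and C4b were higher in the members of 6 of 6 libraries in the CPM of these cells.

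Of the acute phase list, built around interleukin-6 and STAT3, 2 of 12 tested genes were higher among mostly proximal cells (C3 and Lrg1; list median 0.48). The signal transducer Stat3 had a difference of 0.28, the feedback inhibitor Socs3 of 0.69, the receptor subunits Il6st and Lifr of 0.19 and 0.18, and none of these passed. Cebpb, a transcription factor of the acute phase, had 1.34 ± 0.33 (edgeR adjusted p = 0.0833). Over all genes tested, 0.196% were called in each direction among mostly proximal cells, and 5.68% higher and 7.61% lower with all matched cells. With all matched cells 5 of 15 of the list were higher (C3, Cfb, Lrg1, Cebpb and Bcl3) and 2 lower. The 2 lower ones were Lcn2 (-2.98 ± 0.28) and Serpina3n (-3.14 ± 0.81), both acute phase genes themselves. Among mostly proximal cells the difference of Lcn2 was -0.24 ± 0.23 and Serpina3n was too low to test.

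Among mostly proximal cells 0.196% of all genes tested were called in each direction. Of the coagulation and fibrinolysis genes, 0 of 11 tested were higher there and 1 was lower, Anxa2, a plasminogen receptor subunit (list median -0.28). It stood at 257 CPM in the members and 459 in the matched cells at day 1, 33.4 and 84.3 at day 2, 94.1 and 213 at day 4, and 46.8 and 317 at day 7 (-1.16 ± 0.17, edgeR adjusted p = 4.09e-04), lower in 6 of 6 libraries. With all matched cells 2 of 12 were higher, F13b, a subunit of the fibrin-stabilising factor (0.85 ± 0.22), and Serpinf2, the plasmin inhibitor (0.98 ± 0.19), and 5 were lower, against 5.68% higher and 7.61% lower over all genes tested, so that counts in so small a list are a description only. Plat, the tissue plasminogen activator, was among the 5 (-1.45 ± 0.35).

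The list of hepatocyte nuclear factors, which drive fibrinogen in the liver, also held other liver transcription factors such as Ppara. Among mostly proximal cells 0 of 5 tested were called (median 0.13). Against all matched cells 2 of 7 were higher (median 0.38), where 5.68% of all genes tested were. The 2 were the nuclear factor gene Hnf4a (0.55 ± 0.16, edgeR adjusted p = 0.0269) and the fatty acid regulator Ppara (0.87 ± 0.27, adjusted p = 0.0291). Hnf4a, which belongs to the proximal list used for the restriction, had a level of 184 CPM in the members and 198 in the matched cells at day 1, and of 155 and 214 at day 4. Of the genes of the secretory endoplasmic reticulum, which folds and exports proteins such as fibrinogen, 0 of 19 were called (median 0.09). Fatty acid oxidation (0 of 22; median -0.02), proximal transport (0 of 25; 0.14) and the cell cycle (0 of 17; -0.55) had none called either. Among mostly proximal cells 0.391% of all genes tested were called, so counts of 0 in such small lists are a description only. Against all matched cells 5 of 22 fatty acid oxidation genes were higher (median 0.30) and none lower. In the same comparison 0 of 18 cell cycle genes were called, against 5.68% higher and 7.61% lower over all genes tested. The summed cell cycle list of mostly proximal cells differed in direction between libraries: 655 CPM in the members and 2318 in the matched cells at day 1, 794 and 219 at day 2, and 167 and 287 at day 4.

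Cxcl1 and Irf1 were also higher. Cxcl1, a neutrophil chemokine, stood at 65.0 CPM in the members and 44.1 in the matched cells at day 1, 273 and 160.1 at day 2, 224 and 140.5 at day 4, and 140.5 and 63.4 at day 7 (0.71 ± 0.15, edgeR adjusted p = 0.0265). It was higher in 5 of 6 libraries, and only the fit without day 1 kept the call. Irf1, a transcription factor of interferon responses, stood at 22.5 and 17.4 CPM at day 1, 135 and 58.5 at day 2, 70.1 and 29.6 at day 4, and 125 and 56.3 at day 7 (1.10 ± 0.21, adjusted p = 0.00752). The interferon list as a whole had 0 of 12 called (median -0.06), against 0.391% of all genes tested. Ccl5, a T cell chemokine, was lower (-1.33 ± 0.26, edgeR adjusted p = 0.00909), with 66.4 CPM in the members and 189 in the matched cells of day 4.

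The lysosomal proteases Lgmn and Ctsb were both higher. Lgmn (legumain) stood at 1069.8 CPM in the members and 529 in the matched cells at day 1, 1160.4 and 962 at day 2, 1221 and 659 at day 4, and 1124 and 648 at day 7 (0.73 ± 0.13, edgeR adjusted p = 0.00381), higher in 6 of 6 libraries. Ctsb (cathepsin B) differed by 0.59 ± 0.14 (adjusted p = 0.0479), also in 6 of 6. The remaining higher genes were Ypel2, Mgst1, Npl, Pnrc1, Eddm3b, Rnase4, Tacc2, Gmpr, Id3 and Sepp1, with log2 changes of 0.61 to 1.11. Sepp1 encodes selenoprotein P, a secreted selenium carrier, and Mgst1 a microsomal glutathione transferase. Mgst1 was the only one of the 34 whose difference had the opposite sign with all matched cells (-0.50, not called). Without the day 4 library C3 alone of the 17 higher genes kept its call.

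**Figure D5:**
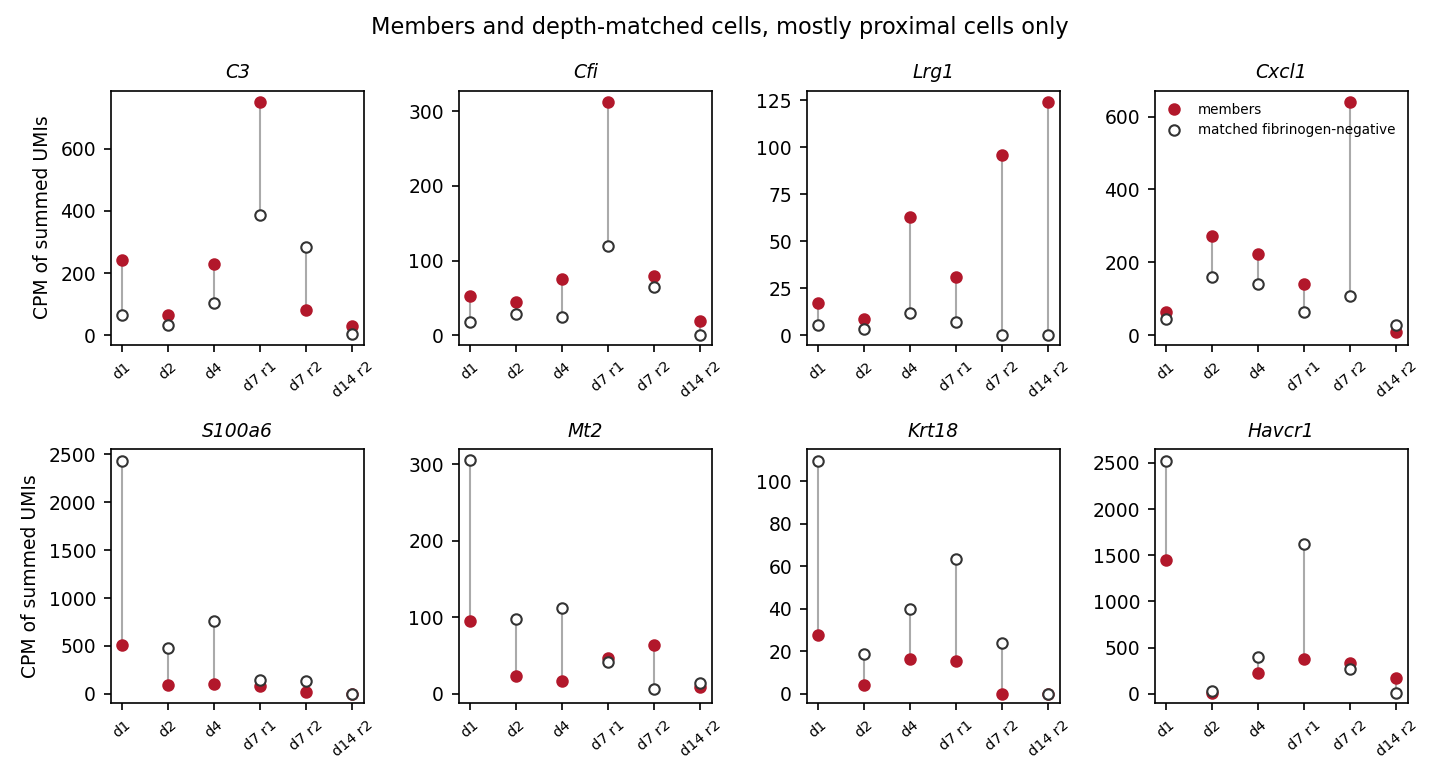
CPM of summed UMIs in members (filled) and depth-matched fibrinogen-negative cells (open) of mostly proximal character in 6 libraries (d, day; r, replicate); the second replicates of day 7 and of day 14 did not enter the fit. Members lie above for Cfi and Lrg1 in 6 of 6 libraries and for C3 and Cxcl1 in 5 of 6, and S100a6 lies below in 5 of 6 and at 0 in both classes at day 14.

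Several transcripts of the injured tubule were lower in the members than in their matched neighbours. S100a6, a calcium-binding protein of damaged and dedifferentiated epithelium, had the smallest adjusted p of all (-2.45 ± 0.16, edgeR adjusted p = 7.20e-11). It stood at 506 CPM in the members and 2436 in the matched cells at day 1, 93.1 and 476 at day 2, 103 and 765 at day 4, and 78.1 and 141 at day 7. It was lower in 5 of 6 libraries, including the second replicate of day 7 (16.0 and 137 CPM), and was not found in either class at day 14.

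The keratin gene Krt18 stood at 27.8 CPM in the members and 109.6 in the matched cells at day 1, 4.36 and 18.9 at day 2, 16.6 and 40.1 at day 4, and 15.6 and 63.4 at day 7 (-1.71 ± 0.28, edgeR adjusted p = 0.0013). Vim, the mesenchymal intermediate filament vimentin, stood at 23.9 and 86.9 CPM at day 1, 13.1 and 13.8 at day 2, 12.9 and 69.6 at day 4, and 0 and 70.4 at day 7 (-1.84 ± 0.32, adjusted p = 0.0022). Sprr1a, a cornified envelope protein with close relatives, differed by -2.93 ± 0.47 (adjusted p = 0.00147). The calls on Krt18 and Vim were lost without day 1 and without day 4 respectively.

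Havcr1 itself was lower in the members, although most day 1 members carried it. It stood at 1449 CPM in the members and 2525 in the matched cells at day 1, 14.5 and 32.7 at day 2, 222 and 401 at day 4, and 375 and 1626 in the first replicate of day 7 (-1.08 ± 0.17, edgeR adjusted p = 7.13e-04). In the second replicate of day 7 (336 and 273 CPM) and at day 14 (172 and 14.5) the members were higher, so the direction held in 4 of 6 libraries. Detection ran the other way: Havcr1 was found in a larger share of members than of all fibrinogen-negative proximal-marker cells, which were shallower, in 5 of 6 libraries (62.2% and 52.1% at day 1, 26.3% and 6.60% at day 2, 42.2% and 37.3% at day 4, 61.5% and 22.01% in the second replicate of day 7, 16.7% and 1.04% at day 14), and in a smaller share in the first replicate of day 7 (30.8% and 38.6%). With all matched cells the difference was -0.43 and was not called (adjusted p = 0.108). Of the list of 28 tubular injury genes, 6 of 26 tested were lower and 1, Cxcl1, higher among mostly proximal cells (median -0.51). With all matched cells 18 of 27 were lower and 2 higher (median -1.34). Over all genes tested 0.196% were called in each direction among mostly proximal cells, and 7.61% lower and 5.68% higher with all matched cells. The summed list did not follow the median: among mostly proximal cells it stood higher in the members at day 1 (20824 and 16335 CPM), day 2 (5817 and 5137) and day 14 (5451 and 2687), and lower at day 4 (6826 and 7687) and in both replicates of day 7 (9179 and 12333, and 6095 and 6604).

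Of the list of metallothionein and oxidative stress genes, 3 of 14 tested were lower and none higher among mostly proximal cells (median -0.16). Over all genes tested there 0.196% were called in each direction. With all matched cells 5 were higher (Gpx3, Gpx1, Ftl1, Fth1 and Hmox1) and 2 lower (Mt1 and Mt2). The list median there was 0.035, and 5.68% of all genes tested were higher and 7.61% lower. Metallothioneins are small metal-binding stress proteins. Mt2 stood at 95.4 CPM in the members and 305 in the matched cells at day 1, 23.3 and 98.1 at day 2, 16.6 and 112 at day 4, and 46.8 and 42.2 at day 7 (-2.01 ± 0.22, edgeR adjusted p = 2.50e-06). Mt1 stood at 353 and 790.0 CPM at day 1, 72.7 and 213 at day 2, 113 and 253 at day 4, and 140.5 and 70.4 at day 7 (-1.17 ± 0.17, adjusted p = 4.19e-04). Both were lower in 4 of 6 libraries and higher in both day 7 replicates. Gsta1, a glutathione transferase of the same list, was lower (-1.37 ± 0.27, adjusted p = 0.0103), and the heme oxygenase Hmox1 had a difference of 0.82 (adjusted p = 0.385).

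The segment lists do not settle the nephron position of the members, since Slc5a12 and Slc13a1 of the rule are themselves segment genes. With all matched cells 6 of 6 genes of the first segment (S1) were higher (median 1.025). Of the second 2 of 5 were higher (0.59), and of the third 3 of 7 were higher and 1 lower (0.10). Over all genes tested 5.68% were higher and 7.61% lower. Among mostly proximal cells, where 0.196% of all genes tested were called in each direction, the S1 genes had a median of 0.25. Those of the second segment had a median of -0.16, and none of either was called. Of the third segment (S3) 1 of 7 was called, the amino acid transporter Slc7a13, which stood at 18.6 CPM in the members and 57.5 in the matched cells at day 1, 36.4 and 37.0 at day 2, 405 and 1083 at day 4, and 0 and 35.2 at day 7 (-1.20 ± 0.22, edgeR adjusted p = 0.00338). It was lower in 6 of 6 libraries, and its call was lost without day 4. Slc13a1, a gene of the rule, was detected more in the members and is given without a test, since its detection enters membership: 1069.9 CPM in the members and 376 in all matched cells at day 1, and 1528 and 453 at day 4. Hspb1, a small heat shock protein, Anxa3, an annexin, and the galectin genes Lgals3 and Lgals1 were also lower (-1.55 to -0.52).

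Levels of the gene lists in the members of each day are given with those of their matched cells. With all members summed per library, the tubular injury list stood at 23375 CPM at day 1, 6053 at day 2, 8334 at day 4, 9354 and 29391 at day 7 and 5688 at day 14, against 29237, 19612, 16435, 20935, 20341 and 4323 in the matched cells. The list of complement genes stood at 593 CPM at day 1, 507 at day 2, 814 at day 4, 1888 and 414 at day 7 and 209 at day 14, against 186, 213, 319, 710, 280 and 104 in the matched cells. For complement the first replicate of day 7 was the highest and day 14 the lowest in both classes. The interferon list stood at 139 CPM at day 1 and 5138 at day 2, where the matched cells stood at 237 and 6151, so both classes of the day 2 library were high. Ifit1, an interferon-induced RNA-binding protein, stood at 3.87 CPM in the members of day 1, 1274 in those of day 2 and 43.1 in those of day 4, and Rsad2 (viperin) at 9.02, 1079 and 27.5. Erythroid genes stood at 630.3 CPM at day 1 and 3.03 at day 2, and their part in these differences was not tested. With the libraries of at least 10 members, day 14 (1 library, assumed to vary like day 7) against day 7 gave 32 genes of 7653 (0.418%) with an edgeR adjusted p under 0.05, 8 higher (0.105%) and 24 lower (0.314%). That fit had 1 residual degree of freedom, and its day 14 arm was the 12 members whose share was not detectable above background, 1 of which was left after thinning, so the calls compare these libraries and not fibrinogen-expressing cells of both days. Days 1, 2 and 4 had 1 library each, and no library of day 11 and 1 of day 14 reached 10 members, so that these values have no replicate check.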

How the data were processed

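The deposited counts are whole numbers, with gene symbols in rows and barcodes in columns of 1 table a library, read here as UMI counts, which the labels do not state. Per the labels' protocols, the authors made them by Drop-seq with a modified Nextera XT preparation. The submitters' processing notes name Bowtie2 2.2.7 and mm10; the counting tool and annotation are not given in the sources used here. Barcodes with fewer than 500 genes or over 50% mitochondrial UMIs were dropped, leaving 52797 of 64803. Counts were summed per library and class and tested with edgeR 4.0.16 (quasi-likelihood, TMM, filterByExpr, R 4.3.3), with DESeq2 1.42.0 as an alternative. Each member was matched to up to 3 comparison cells by total UMIs. Log2 changes are those of edgeR. On simulated counts (9756 genes tested) the test recovered 84% of 100 genes changed by 1 on the log2 scale and 100% of 100 changed by 2. The changed genes were drawn only from those above 100 CPM on average, with 1 fixed dispersion. Recovery of lower genes, such as Lrg1 and many list genes, was not measured. Doublets were scored with Scrublet in scanpy 1.11.5; since its own threshold marked at most 0.111% of a library, none were removed and the top 5% were left out as an alternative.

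Members, gene lists and tests were chosen with earlier results of these data known. The genes named are, in each direction, the 12 most changed of those with an adjusted p under 0.05, a mean log2 CPM of at least 5 and 1 sign in every fitted library, list members, genes of the rule, and, chosen after their values were seen, the genes called among mostly proximal cells. Each library is 1 replicate. Of 57 genes looked up in GENCODE M21, 55 were matched, and 13 overlap a gene on the opposite strand; since no source says that reads were counted by strand, such reads cannot be told apart. These include Anxa2, Ctsb, Emb, Fgg, Gmpr, Irf1, Klk1, Mt2, Slc13a1, Slc7a7, Tacc2 and Umod. Some results are not reported here.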

Additional observations from a re-analysis of the deposited data

How the results depend on the processing

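With all matched cells 1333 genes were called. The count was 854 with DESeq2, 245 without the library block (18 higher, 227 lower), 316 for members with all 3 chains, 35 when cells with any UMI of Umod, Slc12a1, Slc12a3, Aqp2, Hbb-bs or Lyz2 were left out, and 4269 against all barcodes lacking fibrinogen. Chosen after seeing the data, it was 522 without cells over 10000 UMIs, 573 with Havcr1-positive cells only, 34 with mostly proximal cells only, 31 with these and libraries from 10 members on, and 49 with these and Havcr1. Leaving out 1 library each gave 846 to 1145, the lowest without day 1. Among mostly proximal cells (34 called), all alternatives were chosen after seeing the data: 62 without a filter on low counts, 18 with DESeq2, 74 without cells over 10000 UMIs and 93 with libraries from 50 members on. Leaving out 1 library each gave 12 to 78. Some alternatives held fewer libraries. Only days 1 and 4 entered with all 3 chains, with Havcr1-positive cells only and with libraries from 50 members on. Day 2 dropped out without cells over 10000 UMIs. The first replicate of day 7 dropped out when cells with Umod or the other 5 genes named were left out. The part of this in the counts was not tested. For the genes named by rank or called, 729 alternative values kept their direction and side of the threshold, 185 kept the direction and lost the call, and none reversed within its own comparison. These genes were chosen by their main fit, those ranked also for 1 sign in every fitted library. The alternatives reuse the same libraries, and a gene not tested in a setting gave no value there. The tally is thus a description and no separate support. Between the comparisons Mgst1 changed sign (1.07 among mostly proximal cells, -0.50 with all matched cells, not called).

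The share of members among proximal-marker cells fell to 0 in the control under thinning, Scrublet removal, all 3 chains or without cells over 10000 UMIs, and so did its share of all kept cells. With thinning it was 13.3% (of all kept cells 3.26%) at day 1, 0.316% (0.124%) at day 2 and 4.83% (1.68%) at day 4. With all 3 chains it was 9.24% (2.83%) at day 1, 0.109% (0.0489%) at day 2, 2.26% (0.764%) at day 4 and 0.620% (0.0567%) at day 7. Without cells over 10000 UMIs the day 2 share was 0.950% (0.422%). The cause of these changes was not tested.

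At the minimum of 20 members no comparison between days or with the control was fitted, as days 11, 14 and the control had no such library; their other alternatives were not run. With libraries from 10 members on, the difference between members and matched cells differed between days 14 and 7 for 0 of 9737 genes by edgeR with 1 residual degree of freedom (154 at an unadjusted p under 0.05). No paired analysis was possible because the labels name no animal or batch shared by libraries of different days. The first day 7 replicate summed to 59294 UMIs over its members, and the part of depth in the number of calls was not tested. Low genes such as Serpina3n were not tested among mostly proximal cells.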

Other observations

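Binding partners of fibrinogen made a small list of their own. With all matched cells, 2 of 7 tested were higher in the members: Tgm2, a transglutaminase that can cross-link fibrin (0.98 on the log2 scale, edgeR adjusted p = 9.03e-05), and Icam1, an adhesion receptor that binds fibrinogen (0.93). Thbs1, the matricellular protein thrombospondin-1, was lower (-2.43). Over all genes tested 5.68% were higher and 7.61% lower, and counts in so small a list are a description only. Within mostly proximal cells 0 of 5 were called (median 0.16), against 0.391% of all genes tested. Icam1 had a difference of 0.63 and Tgm2 of 0.39 there. Cd74, the invariant chain of MHC class II, was higher with all matched cells (1.11), at 128 CPM in the members and 38.6 in the matched cells of day 1, and 405 and 160.4 at day 4. It is one of the genes used to choose the mostly proximal cells and so has no test there. The other leukocyte transcripts called in that list, Lyz2, Tyrobp, Fcer1g and C1qb, were lower (-2.43, -1.91, -2.09 and -1.52).

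The list of tubular repair and development genes had 0 of 13 higher and 5 lower with all matched cells: Cd24a (-2.99), Foxc1 (-3.54), Jag1 (-1.75), Hes1 (-1.40) and Sox4 (-0.88). With mostly proximal cells only, 0 of 11 were called (median 0.11), with Cd24a at -0.50 and Sox4 at 0.16. The immediate early genes likewise had 7 of 20 lower with all matched cells. Among mostly proximal cells 1 of 19 was lower, the heat shock protein Hspb1 (-1.55). Over all genes tested 7.61% were lower with all matched cells and 0.196% among mostly proximal cells.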
